A study of Mus musculus with 2 samples.

Results

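The 20-month library was made from aged C57BL/6 mice, whose bone marrow gave sorted hematopoietic stem cells (HSCs) that were read by single-cell ATAC-seq, in which a transposase cuts the open stretches of chromatin in each nucleus and a droplet barcode marks the nucleus that a fragment came from. Its cells were the barcodes that the authors' pipeline called as cells and that held more than 3000 and fewer than 20000 fragments in peaks. By this rule 3404 of the 3694 called barcodes were described here, 172 lying at or below the lower limit and 118 at or above the upper one. The cells nearest the limits held 3012 and 19990 in-peak fragments, against 3000 and 20044 in the called barcodes nearest to them outside. The series as a whole gave 8291 cells by the same rule, of which 4887 came from the other library, made from HSCs of mice 10 weeks old. Both held cells sorted as CD150+, c-kit+ and Sca-1+ and as Lin-, Flt3-, CD48-, CD34- and IL-7-, and no treatment or modified allele is named for either. There was 1 library per age, and the number of mice behind it is not given for it in the sources used here. No spread between animals could therefore be measured and no test was made. Every interval below is a 95% interval that covers counting error alone, Poisson for levels and binomial for shares and ratios, and values of the young library stand beside those of the aged one as values of another library.

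HSCs are rare cells of the marrow that renew themselves and give rise to all blood lineages, and they stay mostly out of the cell cycle. With age the pool of HSCs grows, its output shifts toward myeloid cells and platelets, and genes such as Selp and Clu are known as hallmarks of the aged state. A stem cell keeps many promoters and enhancers of its possible fates open before any lineage is chosen, so accessibility is read here as a property of chromatin and not as expression.

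Sequencing gave 63744997 read pairs for the aged HSCs, which reduced to 48333115 unique fragments over 217516 barcodes, and the 3404 cells held 38659257 nuclear ones. A cell held a median of 11020 fragments, and the 5th and 95th percentiles were 4639 and 20124. The median share of fragments in peaks was 81.0% and the lowest was 27.01%. TSS enrichment, the density of cuts at gene starts over that at the edges of the windows, had a median of 4.92 against 5.32 in the young library. A method that looks for 3 or more overlapping fragments of 1 cell marked 229 cells (6.73%) as possible doublets, with a median of 20546 fragments against 10646 in the others, and they were kept. The barcodes of 26 aged cells (0.764%) were also barcodes of cells in the young library. Another 131 barcodes lay within the limits but were not called as cells.

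Promoter accessibility was counted as fragments with at least 1 end within 1 kb of the 5' end of a gene, per 1000000 nuclear fragments of the cells (FPM). It was ranked among 21938 protein-coding genes, and a percentile is the share of genes with a lower value. The median promoter had 10.2 FPM and was cut in 10.6% of cells. The quartiles lay at 0.414 and 23.1 FPM, the 95th percentile lay at 41.2 FPM, and 6392 promoters (29.1%) lay below 0.734 FPM, the mean of the genome for windows of that size. No fragment was found at 906 promoters, where a count of 0 allows up to 0.0776 FPM. Gene bodies were counted with 2 kb upstream and per kb, and the ranks of promoter and body had a Spearman correlation of 0.754 over genes that share 1 library. Promoter ranks of the aged and young libraries had a Spearman correlation of 0.994 over the same genes.

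The promoters of the 5 HSC markers ranged from high to low rank in the aged library. Clu, the gene of the secreted chaperone clusterin, led them with 1201 promoter fragments, 31.1 FPM (29.3 to 32.9) and the 87.0th percentile, against 24.1 FPM in the young library. Itga2b, the integrin chain CD41 of platelets, had 16.3 FPM (15.05 to 17.6), the 61.7th percentile, and 21.3 FPM in the young library. Selp, the adhesion receptor P-selectin, had 9.002 FPM (8.08 to 10.0) at the 47.8th percentile, where the young library had 4.93 FPM. Slamf1, the gene of CD150, had 6.49 FPM (5.71 to 7.35) at the 42.7th percentile and 4.91 FPM in the young library. Mecom, a zinc finger factor needed for HSC upkeep, had 14 fragments at the 5' end of the annotated gene, or 0.362 FPM (0.198 to 0.608), at the 23.7th percentile and below the genome mean. At an annotated Mecom start 38494 bp inside the gene the level was 32.5 FPM, the 87.3rd percentile of genes by their strongest start. By gene body all 5 lay above the middle, at the 88.0th percentile for Clu, 93.6th for Itga2b, 77.4th for Selp, 62.0th for Slamf1 and 56.2nd for Mecom.

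The genes of the sort gate did not follow their proteins one for one. Kit, the stem cell factor receptor selected for, had 32.4 FPM at the 88.7th percentile, while Ly6a, which encodes Sca-1 and was selected for as well, had 1.91 FPM at the 33.8th. Among proteins selected against, Flt3, a receptor of lymphoid-primed progenitors, had 17.2 FPM at the 63.7th percentile, Cd34 had 9.47 FPM and Cd48 had 2.82 FPM. Genes of lineage antigens had 4.32 FPM for Itgam, 0.491 for Cd4, 0.233 for Ly6g and 0.181 for Cd8a, and Il7r, the receptor chain of lymphoid progenitors, had 1.03 FPM. Ptprc, the gene of the pan-leukocyte antigen CD45, had 15.4 FPM.

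Promoter sequences of marker and gate genes are printed here so that the letters behind low and high levels can be seen. Each is the stretch of 250 bases before a gene start in RefSeq (GRCm38.p6), 5' to 3' in the sense of the gene. Capitals mark fixed strings that factors of blood cells are known to prefer, searched on both strands: AGATAA for GATA factors, GAGGAAGT for PU.1, TGTGGT for RUNX, TGACAG for MEIS and CAGCTG for E2A. Each string was searched separately, and a base within more than 1 of them is capitalised once.
Kit, chr5:75574741-75574990, plus strand: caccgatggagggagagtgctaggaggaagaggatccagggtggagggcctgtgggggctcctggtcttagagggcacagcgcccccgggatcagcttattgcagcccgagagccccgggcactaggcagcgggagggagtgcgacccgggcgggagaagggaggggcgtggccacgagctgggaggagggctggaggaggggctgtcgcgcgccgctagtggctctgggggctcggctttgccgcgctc
Hlf, chr11:90390918-90391167, minus strand: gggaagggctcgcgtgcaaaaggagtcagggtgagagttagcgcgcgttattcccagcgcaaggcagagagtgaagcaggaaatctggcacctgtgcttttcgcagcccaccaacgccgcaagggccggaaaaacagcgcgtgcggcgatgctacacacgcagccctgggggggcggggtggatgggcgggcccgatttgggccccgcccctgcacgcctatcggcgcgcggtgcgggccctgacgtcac
Itga2b, chr11:102469884-102470133, minus strand: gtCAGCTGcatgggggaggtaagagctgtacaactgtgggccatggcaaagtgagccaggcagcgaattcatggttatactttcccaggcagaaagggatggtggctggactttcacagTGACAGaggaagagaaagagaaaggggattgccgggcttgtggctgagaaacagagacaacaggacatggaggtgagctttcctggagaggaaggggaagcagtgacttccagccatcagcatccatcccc
Selp, chr1:164115014-164115263, plus strand: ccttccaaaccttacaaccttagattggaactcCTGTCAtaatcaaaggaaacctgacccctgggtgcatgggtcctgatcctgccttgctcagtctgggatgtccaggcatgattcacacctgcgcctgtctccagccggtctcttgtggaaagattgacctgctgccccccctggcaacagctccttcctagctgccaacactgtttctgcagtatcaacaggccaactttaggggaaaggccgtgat
Procr, chr2:155750967-155751216, plus strand: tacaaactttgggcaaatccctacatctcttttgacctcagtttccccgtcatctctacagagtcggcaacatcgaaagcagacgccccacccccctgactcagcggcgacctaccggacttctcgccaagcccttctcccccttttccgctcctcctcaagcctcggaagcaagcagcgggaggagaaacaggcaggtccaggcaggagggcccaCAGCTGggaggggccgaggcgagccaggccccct
Slamf1, chr1:171766882-171767131, plus strand: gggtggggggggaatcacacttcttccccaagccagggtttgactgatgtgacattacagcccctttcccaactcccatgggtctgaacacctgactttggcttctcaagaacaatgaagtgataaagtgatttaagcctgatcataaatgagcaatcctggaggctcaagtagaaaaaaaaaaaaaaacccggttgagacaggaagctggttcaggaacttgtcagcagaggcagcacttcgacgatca
Mecom, chr3:30509760-30510009, minus strand: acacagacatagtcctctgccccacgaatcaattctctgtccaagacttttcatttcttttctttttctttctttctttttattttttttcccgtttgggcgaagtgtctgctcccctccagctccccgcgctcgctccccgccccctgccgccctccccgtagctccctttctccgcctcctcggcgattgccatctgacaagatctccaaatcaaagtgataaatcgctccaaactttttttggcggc

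The Kit and Hlf stretches belong to the more accessible promoters of the set and hold none of the 5 strings, and neither do those of Slamf1 and Mecom, while those of Selp and Procr hold 1 each and that of Itga2b 2. Counted over the window of 300 bases that starts with each stretch, Kit had 16.7 FPM, Hlf, a factor of stem cell identity, 15.7, Itga2b 7.37, Selp 5.30, Procr, the endothelial protein C receptor, 4.76, and Slamf1 3.08. The RefSeq start of Mecom shown, which lies near but not at the annotated start with 32.5 FPM, had 3.41 FPM in its window. Fragments shorter than 150 bp made up 84.8% of those in the Hlf window and 30.3% in that of Mecom. Over all 32851 RefSeq start windows, the share that held each string in the stretch before the start was 9.99% for GATA, 2.44% for PU.1, 14% for RUNX, 15.9% for MEIS and 13% for E2A. These are matches of letters and not measured binding.

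Over the whole 300 bases of those windows, the GATA, RUNX and MEIS strings were rarer in the most accessible than in the least accessible quartile, while the KLF, ETS and NRF1 strings were more frequent. From the least to the most accessible quartile of windows, the GATA string was held by 18.3%, 14.2%, 8.05% and 4.20%. RUNX went from 21.02% to 11.48%, and MEIS from 22.1% to 16.1%. The PU.1 string was held by 3.01%, 3.37%, 3.17% and 3.26%, and E2A by 13.8%, 20.3%, 17.7% and 13.4%, with no steady course. GGGCGGGG, the string of KLF and SP factors, went from 1.70% through 5.27% and 24.3% to 39.1%. CCGGAAGT of ETS factors went from 0.706% to 10.8% and GCGCATGCG of NRF1 from 0.317% to 4.80%. The median GC content of the windows was 44.0%, 49.3%, 58.7% and 62.7% in these quartiles, and the part of base composition in the motif shares was not tested.

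**Figure D1:**
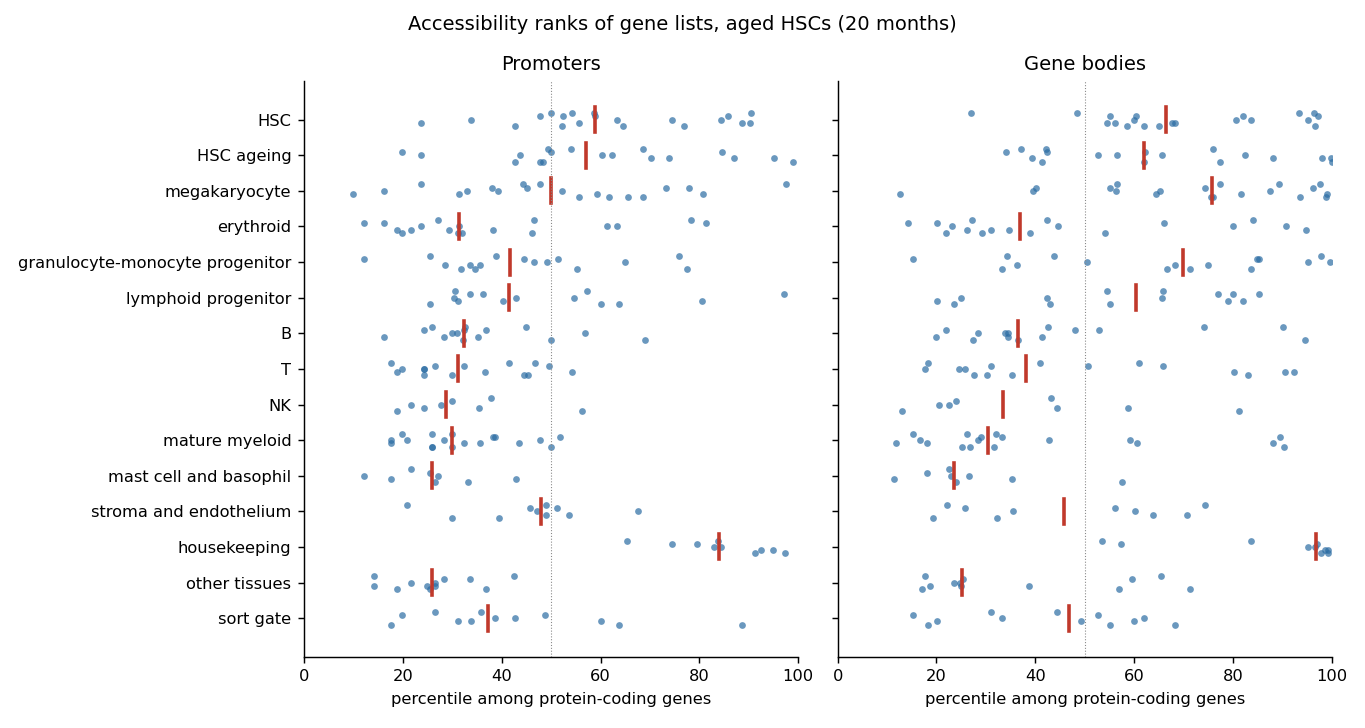
Promoter and gene-body accessibility percentiles among 21938 protein-coding genes, by gene list, in the aged library. Points are genes and bars are list medians; housekeeping genes stand at medians of 84.0 (promoters) and 96.7 (bodies), genes of other tissues at 25.9 and 25.2.

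Stem-cell lists stood above lists of mature lineages in the aged library. The median promoter percentile was 58.8 for 20 HSC genes and 57.2 for 18 genes of HSC ageing, against 84.0 for 10 housekeeping genes and 25.9 for 12 genes of other tissues. It was 50.003 for 20 megakaryocyte genes, 41.7 for 16 genes of granulocyte-monocyte progenitors and 41.6 for 14 genes of lymphoid progenitors. Genes of B cells had a median of 32.4, erythroid cells 31.3, T cells 31.2, mature myeloid cells 29.9, NK cells 28.8 and mast cells and basophils 25.9. By gene body the order of the progenitor lists differed. Megakaryocyte genes had the highest body median of the lineage lists, 75.7, granulocyte-monocyte progenitor genes had 69.8, HSC genes 66.4, ageing genes 62.1 and lymphoid progenitor genes 60.3. With all fragments within 1 kb of any gene start left out, the body medians were 91.8 for the granulocyte-monocyte progenitor, 85.7 for the megakaryocyte and 85.6 for the HSC list, so that the megakaryocyte list no longer led.

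Among HSC genes, 6 of 20 promoters lay in the top quartile of all genes and 1 in the bottom quartile. Tal1, a master factor of blood formation, had 34.3 FPM and was cut in 30.8% of cells, and Ctnnal1 had 34.2 FPM. Mllt3 had 30.1 FPM, Meis1 29.0 and Prdm16 24.0, all 3 encoding nuclear regulators with roles in HSC maintenance. Lower in the list stood Procr with 11.4 FPM and Tek, the angiopoietin receptor, with 10.2. Tek combined a promoter at the 50.1st percentile with a body at the 26.99th, whereas Gata2, with a promoter at the 59.0th, had a body at the 97.1st. Erg, like Mecom, was more accessible at an inner start, with 20.2 FPM against 9.03 FPM at its 5' end.

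Among genes of HSC ageing, 4 of 18 promoters lay in the top quartile. The immediate-early gene Jun had 56.3 FPM at the 98.9th percentile and Fos 41.2 FPM at the 95.01st, and their bodies were at the 99.97th and 99.8th. Wwtr1, which encodes the transcriptional coactivator TAZ, had 29.0 FPM, Mt1, a metallothionein, 22.5 and Neo1, the receptor neogenin, 20.6. Nupr1, a stress-response gene, had 6.91 FPM. Vwf, the gene of von Willebrand factor, had 0.362 FPM at its 5' end and 12.1 FPM at a start 6174 bp away, and Aldh1a1, a retinal dehydrogenase, had 0.233 and 16.9 FPM in the same way. The list median over each gene's strongest start was 60.6, against 57.2 over 5' ends.

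Megakaryocyte genes spread widely. Nfe2, a transcription factor of platelet formation, had 48.2 FPM at the 97.6th percentile, and Pf4, the platelet factor 4 chemokine, had 26.5 FPM with a body at the 99.1st. The glycoprotein genes Gp1ba and Gp9 had 24.7 and 18.2 FPM. Clec1b had 1.09 FPM, and Gp6 had 3 fragments in all, 0.0776 FPM. Of these 20 promoters 3 lay in the top quartile and 3 in the bottom quartile.

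Genes of committed myeloid and erythroid cells spanned high and low promoters. Spi1, which encodes PU.1, had 24.4 FPM and Cebpa 23.5 FPM, both of them factors of myeloid fate, while the granule protease gene Ctsg had 0.103 FPM and Elane, neutrophil elastase, 1.84. Csf2ra, a chain of the GM-CSF receptor, had 17.8 FPM at its 5' end, 62.6 FPM at its strongest start and a body at the 99.6th percentile. In the erythroid list Tfrc, the transferrin receptor, had 26.9 FPM and Car2, a carbonic anhydrase, 24.9 FPM. Klf1, the erythroid Krüppel-like factor, had 4.04 FPM with a body at the 94.7th percentile. Gata1 had 0.233 FPM, Hba-a1 0.362 FPM and Car1 0.103 FPM. Reads of the near-identical globin copies may be shared or lost in alignment, so their levels are uncertain.

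Lymphoid genes were spread as widely. Tcf3, which encodes the E2A proteins, had 46.6 FPM and Bcl11a 26.3 FPM, while Rag1, the recombinase of antigen receptor genes, had 0.905 FPM and Ly6d 0.440. In the B list Vpreb1, a surrogate light chain gene, led with 19.9 FPM, Cr2 followed with 13.7 and Ms4a1, the gene of CD20, had 0.155. In the T list Gata3 had 12.4 FPM, Tcf7 10.0 and Cd8a 0.181. Cd3d had 0.207 FPM at its own 5' end and 23.2 FPM at an annotated start 4037 bp away. No B, T, NK or mature myeloid promoter lay in the top quartile. The lowest promoters of the mature lists, with 0.181 FPM for S100a9 and Retnlg, 0.207 for Ncr1 and 0.103 for Ms4a2, were below the median of the genes of other tissues, 0.466 FPM, while the list medians were 0.841 FPM for mature myeloid and 0.711 FPM for NK genes.

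Cpa3 of mast cells had 6.62 FPM, Hdc 1.71, Eomes of NK cells 13.4 and Prf1 3.83. Of the phagocyte genes Cd68 had 11.1 FPM and Cd14 10.2. Stromal and endothelial genes had a median promoter percentile of 48.0 and a body median of 45.9, with 19.2 FPM for Kdr, a receptor for VEGF, 12.002 for Col1a1 and 0.259 for Bglap, the gene of osteocalcin. Housekeeping promoters ranged from 18.003 FPM for Sdha to 47.3 for Actb, with 41.0 for Gapdh. Among the genes of other tissues Gfap had 6.36 FPM, Neurod1 3.36, and Ins2 and Umod 0.129 each.

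Fragment length carries the footprint of nucleosomes, since a short fragment fits between them and a longer one spans 1 or more. Of all fragments of the aged cells, 55.6% were short (under 150 bp), 34.1% were of middle length (150 to under 300 bp) and 10.3% were long, with a median of 114 bp. Within 1 kb of gene starts 65.2% were short and the median was 86 bp. In gene bodies 52.3% were short with a median of 136 bp, and between genes the values were 52.0% and 138 bp. Promoters took 26.1% of fragments, gene bodies 41.9% and intergenic sequence 32.1%. Cell by cell the short share had a median of 55.4%, with 49.3% and 61.5% at the 5th and 95th percentiles.

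**Figure D2:**
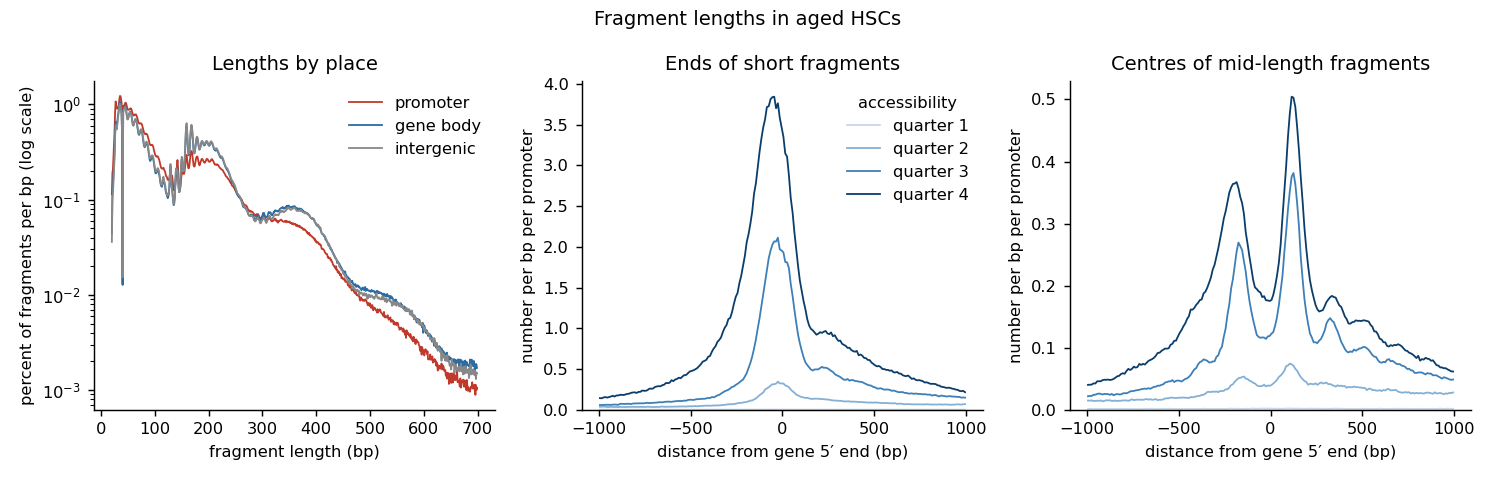
Fragment lengths of the aged cells. Left, percent of fragments per bp of length (log axis) at promoters, in gene bodies and between genes; middle and right, cuts of short fragments and centres of middle-length fragments per bp and promoter, by distance in bp from the gene 5' end, for the 4 quartiles of promoters by accessibility, where the short cuts peak before the start and the middle-length fragments on either side of it.

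Smoothed by a running mean over 11 bp, the length distribution had summits at 33, 163 and 350 bp with a dip at 122 bp. The short summit lay at 32 bp at promoters and at 46 bp in gene bodies and between genes. The running mean spreads a gap at 40 bp, given below, over the lengths between, so the place of this summit is uncertain. The middle summit stood 2.91 times above the dip over all fragments, 3.63 times in gene bodies and 1.71 times at promoters, where it lay at 171 bp and the dip at 135 bp. A ripple with a period of 10.8 bp, near a turn of the DNA helix, ran through the short lengths (10.9 bp at promoters). Fragments of exactly 40 bp were all but missing. There were 5264 of them against 198826 of 39 bp and 333613 of 41 bp, or 1.98% of the mean of their neighbours. The young library had the same gap, with 7831 against 284219 and 474872, and its cause was not tested.

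Around gene starts the lengths separated into an open start and flanking nucleosomes, more sharply in the upper than in the lower quartiles of accessibility. In the 4 quartiles of promoters by accessibility, from low to high, the cuts of short fragments peaked at 85, 25, 25 and 45 bp before the start, at 2.005, 6.83, 19.2 and 19.1 times the level at the edges of the window. Centres of middle-length fragments had a downstream summit at 95, 105, 125 and 125 bp after the start, and an upstream one 95, 155, 165 and 195 bp before it. Summits were sought in set ranges on either side of the start. The downstream summit stood 1.36, 1.91, 3.23 and 2.83 times above the lowest point of its profile near the start in these quartiles. That point lay at -155, -55, -35 and -15 bp from the start. In the lowest quartile, with a median of 5 fragments per promoter, it lay beyond the upstream summit, so the summits of that quartile are uncertain. The spacing of the upstream and downstream summits therefore widened with accessibility, while the ratio of the downstream summit to that lowest point was highest in the third quartile.

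Whether a locus varied between cells beyond counting was read from its dispersion index, which is 1 where the fragments of each cell scatter by counting alone around the number expected from that cell's total. A locus with at least 200 fragments was marked as varying where the index was over 1 by more than 5 times its counting SD and over the median of the 500 loci nearest in depth by more than 0.1. By this rule 3 of 13104 promoters (0.0229%) and 8 of 20828 distal peaks (0.0384%) varied. The median index was 1.02 at promoters and 1.04 at distal peaks, with 95th percentiles of 1.10 and 1.12. Sparse counts set how much could be seen. The median promoter tested had 793.5 fragments, or 0.233 per cell, and would have been marked only where its level differed between cells with a coefficient of variation (CV) of at least 91.9%. At the 99th percentile of depth a CV of 45.2% was enough.

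The promoters that varied were those of Rph3al, Iqcn and Gm10800. Rph3al had an index of 1.38 over 291 fragments and was not marked in the young library (index 1.02). Iqcn had 1.31 over 1046 fragments and Gm10800 had 1.18 over 2963, and both were marked in the young library, at 1.33 and 1.19. Without the 1% of cells with the most fragments of each, which lowers any index, the 3 had 0.942, 1.15 and 1.04. No promoter of the gene lists with enough fragments to be read was marked, under the limits of depth just given. Of the HSC, ageing and megakaryocyte lists 18, 16 and 13 promoters were read. With 0.0229% of all 13104 promoters marked, this says nothing particular about the lists.

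The 8 distal peaks that varied were all among the most accessible 1% of peaks tested, and all 8 were marked in the young library as well. Chief among them was chr17:39843030-39846731 (GRCm38), which lies over an annotated ribosomal RNA gene, CT010467.1, and the lincRNA Gm26917. It held 99363 fragments (0.257% of all), was cut in 99.1% of cells and in 1 cell by 292 fragments, and had an index of 12.8 (8.03 in the young library). The peak at chr11:109011571-109012178 had 8625 fragments and an index of 2.24, and that at chr17:36231180-36231686 had 3834 and 1.73. The peak in an intron of Cdk8, at chr5:146260913-146261437, had an index of 1.55, and chr3:5860285-5860908 had 1.51. An index of 1.39 was found at chr16:57391244-57391767, within Cmss1 and Filip1l, of 1.34 at chr9:123461738-123462258, over an exon of Lars2, and of 1.26 at chr13:9011608-9011912, in Gm36264. Young values for these 7 ran from 1.17 to 1.79. No regions prone to false signal were left out when peaks were called or promoters counted. Whether alignment to repeated sequence shaped the counts of these peaks, or of promoters such as that of Gm10800, was not tested.

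**Figure D3:**
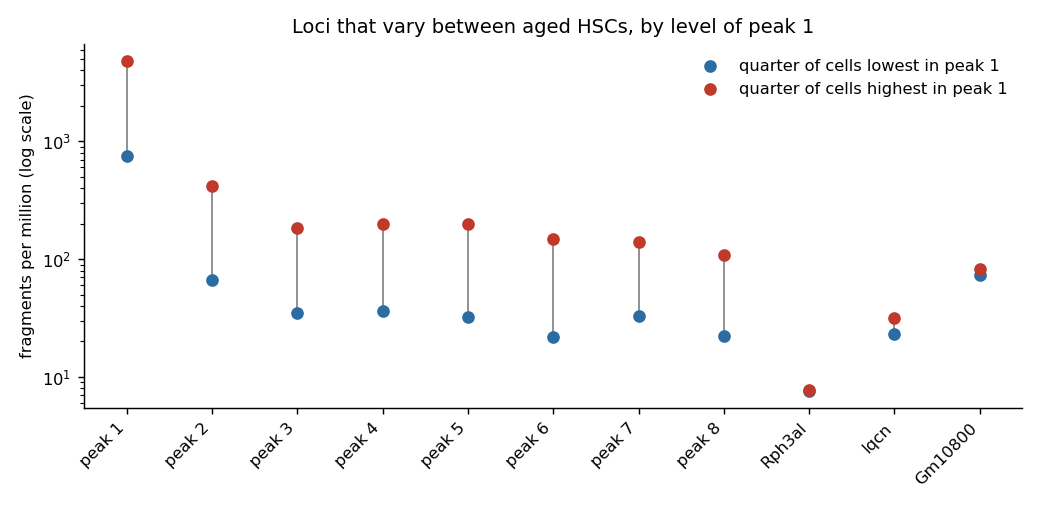
Levels (FPM, log axis) of the 8 distal peaks and 3 promoters that varied, in the quartile of cells lowest and the quartile highest in the ribosomal RNA peak, 851 cells each. The 7 other peaks rise with it, from 66.9 to 418 FPM for the second, while the promoters of Rph3al and Gm10800 lie near the same level in both quartiles.

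These peaks moved together from cell to cell. Across 3404 cells, which share 1 library and its depth correction, the level of the ribosomal RNA peak had Spearman correlations of 0.389 to 0.648 with the 7 others and of 0.0036, 0.057 and 0.041 with the promoters of Rph3al, Iqcn and Gm10800. From the quartile of cells lowest in that peak to the quartile highest, its own level went from 756 to 4850 FPM by construction. The chr11 peak went from 66.9 to 418 FPM, the chr17:36231180 peak from 34.97 to 184, the Cdk8 peak from 35.9 to 199.7 and the Lars2 peak from 32.9 to 140.4. Iqcn went from 23.0 to 31.6 FPM and Rph3al from 7.53 to 7.71. None of the 25-base words of these 7 peaks was found in chr17:39842013-39847341, the stretch around the ribosomal RNA peak. The search took exact words of this stretch alone. It cannot show whether these peaks hold diverged copies or parts of the ribosomal repeat outside it. Its level per cell, with 381, 2262 and 5746 FPM at the 5th, 50th and 95th percentiles, had a Spearman correlation of 0.0401 with the fragments of the cell, -0.145 with its short share and 0.217 with its TSS enrichment.

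At the scale of megabases and gene bodies more loci varied, and fewer did when cells crowded in single bins were left out. Of 2552 bins of 1 Mb 390 (15.3%) were marked, and of 16356 gene bodies 505 (3.09%), with median indices of 1.14 and 1.04. A crowded bin was then defined, after these values were seen, as 1 bin in 1 cell with at least 10 fragments and at least 5 times the number expected. There were 2421 of them, in 417 cells (12.3%) and over 1228 different bins. Of these cells 290 had 1 crowded bin, while 34 cells with 10 or more held 1851 of the 2421 (76.5%). The most in 1 cell was 173, over 13 chromosomes, with 40.3% of its 21298 fragments in crowded bins. The stretch of adjoining crowded bins with the most fragments in that cell covered 9 Mb of chromosome 6 from position 58000001. It held 829 fragments where 33.9 were expected. The young library had 278 such cells (5.69%), of which 20 had 10 or more crowded bins. The rule asks for at least 10 fragments and so depends on depth. Median depth was 9890 fragments in the young and 11020 in the aged cells, so these shares are not on 1 scale.

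**Figure D4:**
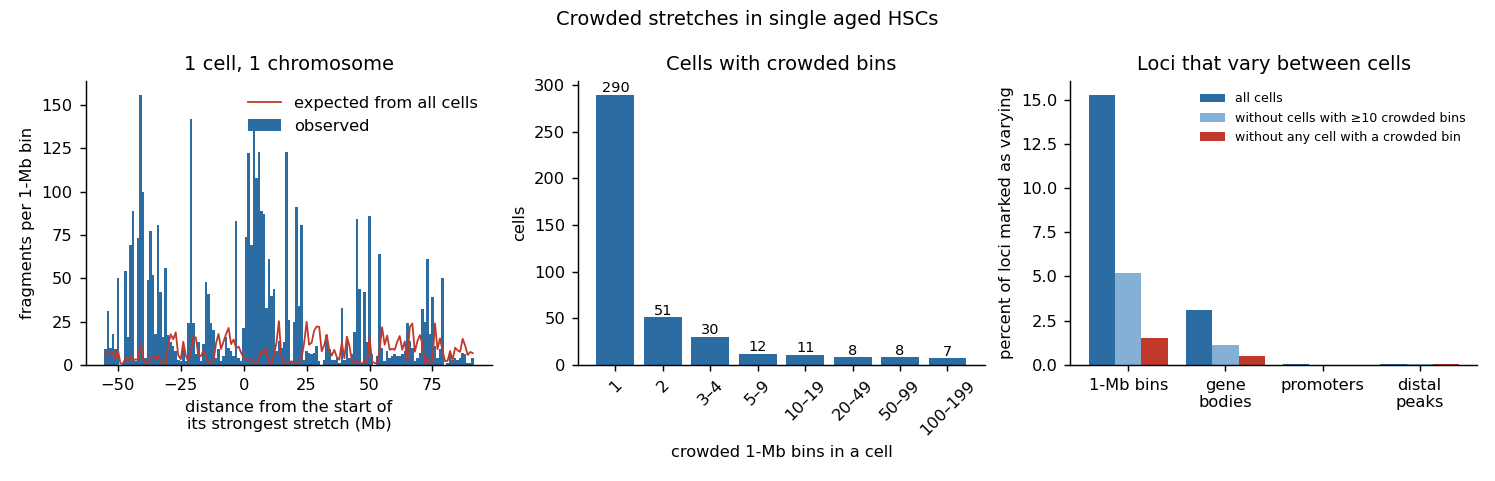
Crowded bins in the aged cells. Left, fragments per 1-Mb bin (bars) and the number expected (line) in the cell with the most crowded bins. They run along the chromosome of its stretch with the most fragments, by distance in Mb from that stretch. Middle, cells by their number of crowded bins, 290 of them with 1. Right, percent of loci marked as varying with all cells, without the 34 cells and without all 417. For bins it fell from 15.3% to 1.53%. The cells left out were chosen by the same bin counts.

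The cells with many crowded bins had a lower share of fragments in peaks. The median was 56.3% in the 34 cells, which include the cell at 27.01%, and 81.1% in cells without a crowded bin. Their median depth was 15943 fragments against 10834, and 4 of them were marked as doublets. Counted in the peaks called here, which gives another scale than the authors' in-peak share above, 5.49% of the fragments in crowded bins of the 34 cells lay in peaks and 44.8% of those elsewhere in the same cells, where the definition itself favours bins with few expected fragments. In 1 cell the bin of chromosome 5 that holds Tbx3 and Tbx5 had 454 fragments against 5.72 expected, and its index went from 11.47 to 1.19 without that cell. The body of Ldb2 had 145 fragments against 0.934 in 1 cell, without which its index went from 7.62 to 1.17. With the 417 cells left out, 39 bins (1.53%) and 77 of 16133 gene bodies (0.477%) were marked, of which 32 and 68 had been marked before, while 8 of 17220 distal peaks (0.0465%) and 1 of 12784 promoters (0.00782%) were marked. The cells left out were chosen by the same bin counts, which by itself tends to lower the indices of bins and bodies. What sets these cells apart was not tested.

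Of the 77 gene bodies that varied without those cells, 40 were still marked without the single cell that added most to their index. The other 37 were not, some of them with an index that scarcely moved. Most of the 40 were long genes, with a median of 669 kb and 35 over 100 kb, where the 16133 bodies read had a median of 25.4 kb. In the young library, where 117 of 16534 bodies were marked in all, 25 of the 40 were among them. The following were named after their values were seen. Iqcn, of 14.2 kb, had an index of 1.79 (young 1.74), far ahead of the rest. Kcnb2, a potassium channel gene of 436 kb, had 1.42 over 3143 fragments in 56.0% of cells, against 1.11 over 1129 fragments in 20.6% of young cells, where it was not marked. Dmd, the dystrophin gene, had 1.42 (1.19). Eya4 had 1.33 over 2623 fragments, against 1.12 over 1627 in the young library. These indices grow with depth, so the values of the libraries are not on 1 scale. The immediate-early genes Nr4a1 and Fosb, both short, had 1.29 (1.20) and 1.22 (1.33). Erg had 1.19 and was the 1 gene of the lists to be marked, but not without its highest cell, where it had 1.18. By contrast Dock3 went from 1.96 to 1.05 without 1 cell that held 50 of its fragments against 0.860 expected.

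The dispersion index of summed gene lists was highest for the ageing, HSC and megakaryocyte genes, but the spread in relation to the mean was not. Over its 20 gene bodies, the HSC list gave a median of 29 fragments per cell (11 and 56 at the 5th and 95th percentiles), with an index of 1.21 and a CV beyond counting of 8.34%. The ageing list had 13 per cell (4 and 26), an index of 1.25 and a CV of 12.7%. The megakaryocyte list had an index of 1.15 and a CV of 10.2%, and the 12 gate genes an index of 1.12. The other 11 lists had indices of 1.04 to 1.09. Without the cells with a crowded bin, the first 3 had 1.17, 1.26 and 1.13. From their promoters alone, which hold fewer fragments, they had 1.06, 1.08 and 1.15. In the young library the body indices were 1.31, 1.19 and 1.15 in the same order, and the CVs 10.51%, 13.7% and 11.3%. The index grows with depth at the same CV, and the CV of the HSC list was the lowest of the 15. It was 34.8% for NK, 34.3% for mast cell and basophil, 20.0% for other-tissue, 19.4% for mature myeloid and 18.1% for erythroid genes, lists with a median of 0 to 2 fragments per cell, and for the NK and mast cell lists the counting SD of the index was close to its excess over 1.

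The concerted part of the variation was described by an axis over cells. It was the second component of the matrix of cells by peaks on odd-numbered autosomes, since the first followed depth (correlation with log10 fragments 0.968 in size). It was read on genes and peaks of even-numbered autosomes, which had not been used to build it, and the reverse was done for the odd-numbered ones. Its high end was set as the end with the larger share of promoter fragments. The axes built on odd and on even autosomes had a correlation of 0.929 across the 3404 cells, which share depth and quality of each cell. From the lowest to the highest quartile of cells (851 each), the median depth went from 13337 to 10827 fragments, TSS enrichment from 4.71 to 5.17, the in-peak share from 79.9% to 81.6%, the promoter share from 25.5% to 28.2%, and the marked doublets from 110 (12.9%) to 29 (3.41%). The 1702 cells between them had a median of 9896 fragments, so depth did not fall steadily along the axis. The ribosomal RNA peak had a Spearman correlation of 0.369 with the axis. The part of depth, doublets and quality in the axis was not tested, beyond the ratios without doublets given below.

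Differences along the axis were small for most genes. Over 6155 genes of even-numbered autosomes, the log2 ratio of the highest to the lowest quartile had a median of 0.035 and an SD of 0.178, against 0.107 from counting. It was over 0.5 for 41 genes and under -0.5 for 27. The interval of the ratio lay above the median for 647 genes and below it for 833. With the axis built on even autosomes and 7948 genes of odd ones, the SD was 0.183. Over genes, which share the cells, the log2 ratios had a Spearman correlation of 0.954 with those without marked doublets, 0.951 with those without the cells with a crowded bin and 0.545 with those of an axis made in the same way in the young library.

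**Figure D5:**
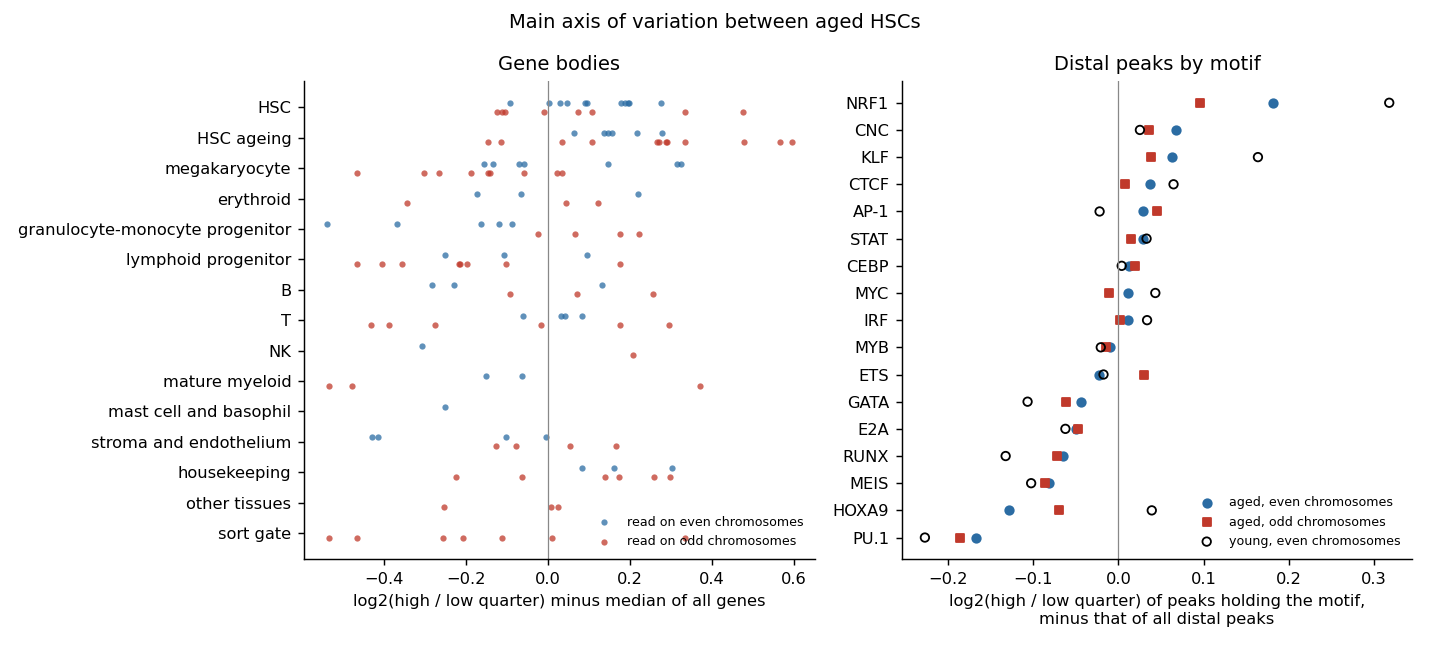
Main axis of the aged cells, as log2 ratios of the highest to the lowest quartile (851 cells each): at left single list genes with at least 500 fragments, relative to the median of all genes and coloured by the chromosomes read, at right distal peaks that hold a motif, relative to all distal peaks. Ageing genes lie mostly right of 0, and PU.1, MEIS, RUNX and GATA peaks lie left of 0 in both sets of chromosomes and in the young library.

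Iqcn stood at the high end of the axis. Its body went from 41.9 through 60.8 and 79.3 to 99.5 FPM over the 4 quartiles of cells, a ratio of 2.37 (2.12 to 2.65). Bbox1, an enzyme of carnitine synthesis, followed with 1.90 (1.503 to 2.40), and Zfp804a, Drd3, a dopamine receptor gene, and Tusc1 had 1.74, 1.63 and 1.62. At the low end Rapsn, known for clustering acetylcholine receptors, went from 21.3 through 13.5 and 10.9 to 8.53 FPM, a ratio of 0.401 (0.308 to 0.518). Pkd1l2 had 0.520, Cnr2, the cannabinoid receptor of immune cells, 0.538, Sh2d5 0.593 and Scn3a 0.600. Their log2 ratios along the young axis were -1.60 for Rapsn, -1.60 for Pkd1l2, -0.89 for Cnr2, -0.78 for Sh2d5 and -1.12 for Scn3a, against 1.76 for Iqcn and 0.23 for Bbox1.

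Genes of HSC ageing lay toward the high end. Summed over the list the ratio was 1.15 (1.11 to 1.20) for 6 genes on even autosomes and 1.18 (1.15 to 1.22) for 12 on odd ones, where all genes had 1.01. All 6 of the former and 10 of the latter had a ratio above that of the median gene. Sbspon had 1.54 (1.29 to 1.84), Neo1 1.51 (1.37 to 1.66), Osmr, the oncostatin M receptor, 1.42 (1.22 to 1.66), Slamf1 1.29 (1.13 to 1.47), Clu 1.24 (1.09 to 1.41) and Wwtr1 1.23 (1.15 to 1.32). Selp, with 1.04 (0.943 to 1.16), did not differ from the median gene beyond counting, nor did Itga2b with 0.979 (0.891 to 1.08).

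HSC genes differed among themselves. The list had 1.08 on even autosomes, with 10 of 11 genes over the median, and 1.03 on odd ones, with 5 of 9. Hoxb5, a homeobox gene, had 1.42 (1.20 to 1.67), Ctnnal1 1.24 (1.10 to 1.40), Mllt3 1.18 (1.11 to 1.24) and Mecom 1.10 (1.06 to 1.14), whereas Meis1 had 0.936 (0.892 to 0.982) and Kit 0.943 (0.873 to 1.02).

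Genes of later stages lay on both sides of the median gene. At the low end, Flt3 had 0.738 (0.664 to 0.820), Pf4 0.738 (0.621 to 0.876), Itgam, the integrin chain CD11b, 0.704 (0.586 to 0.846), Csf1r 0.706, and Plek 0.827 (0.760 to 0.900). Cd48 had 0.854 (0.688 to 1.06) and Cd34 0.884 (0.737 to 1.06), both with intervals that reach the median. Toward the high end stood Clec1b with 1.28 (1.09 to 1.49), Cd28, a costimulatory receptor of T cells, with 1.25 (1.12 to 1.39), Cd68 with 1.32 (1.04 to 1.68) and Csf2ra with 1.15 (1.05 to 1.27). Of members with at least 100 fragments, 3 of 8 megakaryocyte genes on even and 2 of 10 on odd autosomes exceeded the median gene, as did 0 of 7 and 4 of 8 of granulocyte-monocyte progenitors, 2 of 4 and 2 of 9 of lymphoid progenitors and 1 of 3 and 1 of 7 of mature myeloid cells. The megakaryocyte list had 1.04 (0.998 to 1.09) on even autosomes and 0.916 (0.888 to 0.944) on odd ones, the granulocyte-monocyte progenitor list 0.880 (0.833 to 0.930) and 1.07 (1.01 to 1.13), the lymphoid progenitor list 0.976 and 0.896, and mature myeloid genes 0.945 and 0.774. Housekeeping genes, at 1.16 and 1.09, lay as high as the ageing list on even autosomes, beside the rise of the promoter share along the axis.

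Peaks at the ends of the axis are shown with their central 300 bases (GRCm38.p6, plus strand), as the loci whose accessibility differed most between the end quartiles on the chromosomes read. Capitals mark the same 5 strings as above.
High end 1, chr6:76387488-76387787: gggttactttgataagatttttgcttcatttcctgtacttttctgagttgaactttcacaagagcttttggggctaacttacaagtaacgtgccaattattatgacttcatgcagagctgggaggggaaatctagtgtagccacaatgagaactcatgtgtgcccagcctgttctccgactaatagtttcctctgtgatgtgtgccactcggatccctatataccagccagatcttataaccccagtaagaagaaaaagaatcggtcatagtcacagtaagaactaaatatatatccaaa
High end 2, chr2:122771113-122771412: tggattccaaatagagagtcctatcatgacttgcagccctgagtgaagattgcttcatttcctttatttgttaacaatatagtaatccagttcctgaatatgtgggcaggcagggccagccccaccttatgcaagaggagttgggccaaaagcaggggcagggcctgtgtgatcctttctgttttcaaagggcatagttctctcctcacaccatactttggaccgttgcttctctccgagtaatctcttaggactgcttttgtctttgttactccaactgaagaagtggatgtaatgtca
Low end 1, chr2:91042648-91042947: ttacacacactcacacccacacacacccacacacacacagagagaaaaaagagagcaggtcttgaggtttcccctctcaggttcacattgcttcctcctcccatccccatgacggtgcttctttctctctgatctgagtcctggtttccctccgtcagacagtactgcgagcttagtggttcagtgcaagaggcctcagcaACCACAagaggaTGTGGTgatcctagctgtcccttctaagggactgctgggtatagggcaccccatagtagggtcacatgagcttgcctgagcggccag
Low end 2, chr2:65342140-65342439: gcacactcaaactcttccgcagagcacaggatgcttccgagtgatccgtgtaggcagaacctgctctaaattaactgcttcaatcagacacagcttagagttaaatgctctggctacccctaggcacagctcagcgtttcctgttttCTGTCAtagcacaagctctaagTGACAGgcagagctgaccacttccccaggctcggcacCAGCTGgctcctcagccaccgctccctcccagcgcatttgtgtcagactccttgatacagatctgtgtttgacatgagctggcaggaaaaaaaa

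The first high-end peak went from 78 to 220 fragments between the lowest and the highest quartile, a ratio of 3.49 (2.69 to 4.58), and lies in no coding gene. The second, in an intron of Sqor, an enzyme of sulfide oxidation, went from 71 to 148, a ratio of 2.58 (1.93 to 3.48). The first low-end peak, within Rapsn and overlapping one of its annotated exons, went from 188 to 53, a ratio of 0.349 (0.252 to 0.476). The second, in Slc38a11, an amino acid transporter gene, went from 166 to 47, a ratio of 0.351 (0.248 to 0.487). Neither high-end stretch held a capitalised string, while the low-end ones held 2 RUNX strings at Rapsn and 2 MEIS and 1 E2A string at Slc38a11. Of other strings searched, the first high-end stretch held that of IRF factors (GAAANNGAA). The second held those of CEBP (TTGCNNAA) and MYB factors. Another peak near the high end, chr16:91534508-91534792, held the GATA, RUNX and MEIS strings.

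The same lean appeared over larger sets of peaks. Among 3619 distal peaks of even-numbered autosomes with at least 200 fragments in the end quartiles, the MEIS string was held by 31.0% of the 500 lowest and 12.4% of the 500 highest by ratio, against 19.2% of all. The RUNX string was held by 38.6% and 26% (30.01% of all), the PU.1 string by 13% and 6.80% (8.43%), the GATA string by 19.4% and 12.4% (13.9%) and the E2A string by 26.6% and 16.6% (21.8%). The MYB string (CAACNG) leaned the same way, with 40.6% and 33% (36.9%). The KLF string went the other way, with 5% and 10.2% (9.48%), as did those of CTCF (AGGGGGC or AGATGGC) with 11% and 16.2% (13.7%), STAT (TTCNNNGAA) with 8.60% and 11.6% (9.26%), MYC (CACGTG) with 6.80% and 9% (7.57%) and CNC factors (GCTGAGTCA) with 2.20% and 3.20% (2.54%). The AP-1 string (TGANTCA), which the CNC string contains, had 14.8% and 13.2% (13.7%). These shares rest on 500 peaks at each end, and whether the smaller differences, such as those of STAT, MYC and CNC, exceed counting was not tested. Summed over distal peaks that hold a string, and relative to all distal peaks, the log2 ratio was -0.17 for PU.1, -0.13 for HOXA9 (TGATTTAT), -0.08 for MEIS, -0.06 for RUNX and -0.04 for GATA. On the reverse chromosomes these were -0.19, -0.07, -0.09, -0.07 and -0.06, and in the young library -0.23, 0.04, -0.10, -0.13 and -0.11, so the HOXA9 value changed sign between libraries. The NRF1 string had 0.18 over 69 peaks, with 0.10 on the reverse chromosomes and 0.32 in the young library. Promoter peaks as a whole had a log2 ratio of 0.15 against 0.02 for all distal peaks, a direction set by the choice of the high end.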

How the data were processed

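The 20-month and the 10-week library were prepared with a droplet kit for single-cell ATAC (10x Genomics). The submitters' processing notes name Cell Ranger ATAC, Signac and mm10. The deposited counts were made by the authors without normalization: read pairs and unique fragments per barcode in 1 table, and read pairs behind each unique fragment, with ends shifted for the transposase, in the other. The authors' peak positions were not used here, but their count of in-peak fragments and their cell calls chose the cells. Groups came from the sample labels, with 1 library per age, so no test was made.

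A fragment with either end in a region was counted there once, with GENCODE M21 on GRCm38, the same build as mm10. Levels are per 1000000 nuclear fragments of the cells. A gene's promoter is its 5' end with 1 kb on either side. Peaks were called on the cuts of the aged cells alone, in windows against the larger of the genome mean and the local mean, at q under 0.001, which gave 145706 peaks, 121518 of them distal, and axis peaks held at least 50 fragments. The axis came from TF-IDF weighting and singular value decomposition. Possible doublets were marked and kept, and left out as an alternative. Intervals are exact at 95%, Poisson or binomial, and fragments of 1 cell are not independent animals. RefSeq sequences came with GRCm38.p6. The lists of genes and the cells were chosen with earlier results of these data known. Named genes were the 5 markers, the gate genes, the 2 highest and the lowest promoter of each list, up to 10 varying promoters and 10 varying distal peaks, and the 5 highest and 5 lowest genes of the axis with at least 500 fragments. Other named genes were chosen after their values were seen. Some genes stand in more than 1 list. Python 3.11.15, numpy 2.4.6, scipy 1.17.1, pandas 2.3.3, numba 0.67.0 and matplotlib 3.10.9 were used, and the steps were tested on simulated data.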

Additional observations from a re-analysis of the deposited data

How the results depend on the processing

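No paired analysis was possible because there was 1 library per age and the labels carry no replicate numbers. Of the summary values (list medians, length shares, counts of varying loci, list indices and the axis), 199 stayed within their margin under the alternative settings of each step and 16 moved, and 19 stayed and 5 moved under those chosen after seeing the data. Ranks of the single marker and gate genes moved more often: 38 of the promoter values moved and 90 did not, and 27 of the body values moved and 21 did not. With fragments near gene starts left out, the body medians of the HSC, ageing, granulocyte-monocyte progenitor, B and gate lists were 85.6, 83.9, 91.8, 56.1 and 68.1. Promoters marked as varying numbered 0 without the top 1% of cells of each locus, 0 with cells thinned to 3000 fragments, and 11 by presence or absence of a fragment, by which 106 distal peaks were marked. Lists summed over promoters alone had indices of 1.06 (HSC), 1.08 (ageing), 1.03 (granulocyte-monocyte progenitor), 1.03 (B), 0.989 (T) and 0.957 (gate). The SD of gene ratios was 0.254 between the end deciles of cells. As alternatives chosen after seeing the data, leaving out all cells with a crowded bin marked 39 bins, 77 gene bodies and 1 promoter, and leaving out those with 10 or more marked 133 bins and 183 gene bodies. The causes of these shifts were not tested. Depth limits what a single locus can show, and marking needs large differences between cells at most promoters.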

Other observations

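Chromosome totals of single cells were read as well. In 54 aged cells a chromosome held under 0.7 or over 1.3 times the fragments expected, and 45 of these cells had a crowded bin. The X chromosome was over 1.3 times in 22 cells, 18 of which had a crowded bin on X. The median index of the chromosomes went from 2.23 to 1.37 without the cells with a crowded bin.

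Among the bins that varied without those cells, the bin of the ribosomal RNA peak on chromosome 17 had an index of 16.009. A bin of X that holds part of Dmd followed with 1.64, and a bin of chromosome 1 that holds part of Kcnb2, with Terf1 and Sbspon, had 1.303. These bins were named after their values were seen.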
